A study of Mus musculus with 8 samples.

Results

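The genes Dcx, Dclk1, Pafah1b1, Nde1, Ndel1, Cdk5, Cdk5r1, Tuba1a, Tubb2b and Tubb3 form a set of 10 neuronal migration genes, and were taken by symbol from RNA-seq count files that each list 23284 gene symbols. All 10 symbols were present and all 10 passed the filter on low counts, among 14696 genes tested. RNA came from dorsal cortex of C57BL/6 mouse embryos at E15.5, a stage of cortical neurogenesis and migration, in 4 libraries labelled wild type (ErbB4+/+) and 4 labelled ErbB4 knockout (ErbB4-/-). ErbB4 is a receptor tyrosine kinase for neuregulins. The ErbB4-/- line lacks the receptor in all tissues but the heart, where a transgene under the alpha-MHC promoter expresses it. The lines were bred as separate homozygous colonies, so that genotype and colony cannot be told apart, and the meninges and ganglionic eminences were dissected away. The litter of each embryo is not given in the sources used here, and p-values measure the spread between these libraries. Summed counts of Erbb4 were not lower in the libraries labelled ErbB4-/- (20.7 to 24.6 CPM, counts relative to the library total) than in those labelled ErbB4+/+ (8.99 to 25.3 CPM), and a gene total does not show which exons were read. Genotypes below are therefore those of the labels.

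New cortical neurons leave the ventricular wall and move along radial glia, and in each step the leading process extends and the nucleus is pulled after it along microtubules. Doublecortin (Dcx) and its relative Dclk1 bind and stabilise microtubules. LIS1 (the product of Pafah1b1) works with NDE1 or NDEL1 to regulate the motor dynein, and CDK5 with its activator p35 (the product of Cdk5r1) phosphorylates NDEL1, DCX and other proteins of the moving neuron. Tuba1a, Tubb2b and Tubb3 encode tubulins of young neurons. In people, mutations of DCX, PAFAH1B1 and TUBA1A cause lissencephaly, a cortex with few or no folds, those of NDE1 cause lissencephaly with a very small brain, and those of TUBB2B and TUBB3 cause other malformations of the cortex.

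The tubulins differ from the other members in how far their sequence is their own, and this bears on every tubulin count below. Each member's longest coding transcript was cut into all windows of 50 bases, the length of the reads. Each window was looked for in the whole genome (NCBIM37, the mm9 build), but not in spliced transcripts. Windows across a splice junction that another spliced transcript shares can thus be missed, so the shares below are lower bounds. Of the 1598 windows of Tuba1a, 69.6% also occurred outside the gene, 772 of them in Tuba1c. Of the 1873 windows of Tubb2b, 57.3% occurred elsewhere, 712 of them in its neighbour Tubb2a. Tubb3 shared 11.5% of its windows, Pafah1b1 2.64% and Dcx 0.565%, and the other 5 members shared none. No exon of a member overlapped an exon of another annotated gene. How reads that fit several places were counted is not given in the sources used here.

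Coding stretches of 50 bases show what such a read can and cannot tell apart. Tubb2b and Tubb2a, both on chromosome 13, were identical at 96.5% of 1338 aligned coding bases. The first pair below, from exon 4 (chr13:34220232-34220281 for Tubb2b and chr13:34167229-34167278 for Tubb2a, minus strand), is the same in both genes. The second pair is the start of each coding sequence in exon 1 (chr13:34222053-34222102 and chr13:34169749-34169798, minus strand), where capitals mark the 3 bases that differ.
Tubb2b, shared window: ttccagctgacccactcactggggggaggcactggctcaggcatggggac
Tubb2a, shared window: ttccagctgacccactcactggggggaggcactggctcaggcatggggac
Tubb2b, start of the coding sequence: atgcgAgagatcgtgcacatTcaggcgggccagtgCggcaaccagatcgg
Tubb2a, start of the coding sequence: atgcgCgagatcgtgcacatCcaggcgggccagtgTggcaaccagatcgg

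Tuba1a and Tuba1b, on chromosome 15, were identical at 98.3% of 1356 aligned coding bases, and 83.4% of the coding windows of Tuba1a occurred elsewhere.

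**Figure D1:**
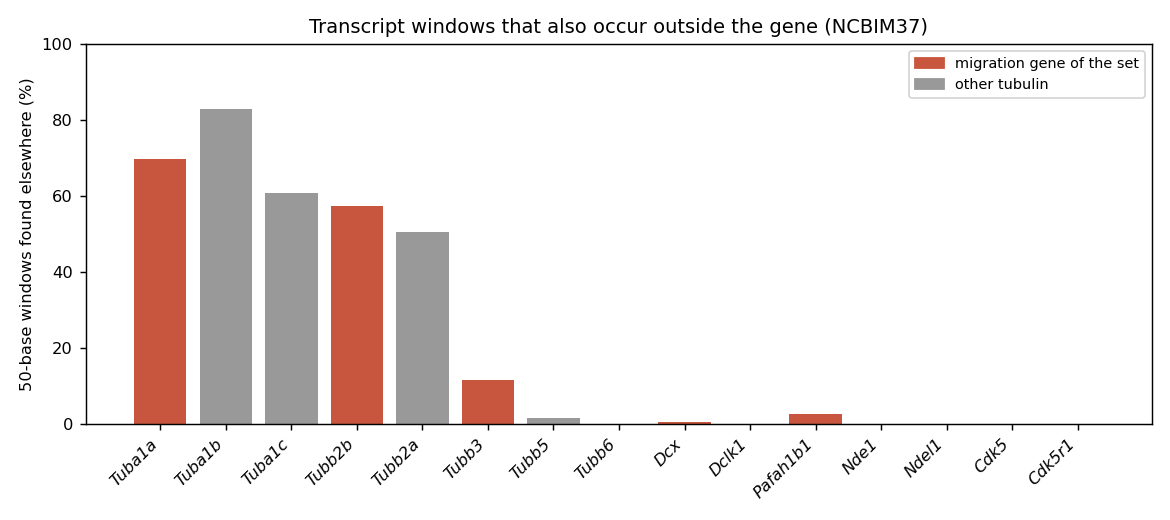
Percent of the 50-base windows of each gene's longest coding transcript that also occur outside the gene in NCBIM37, for the 10 migration genes (red) and other tubulins (grey). The bars of Tuba1a (69.6%) and Tubb2b (57.3%) stand above those of the other 8 migration genes, which run from 0 to 11.5%.

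Counts per library ran from 28205703 to 48871480, and CPM were scaled by TMM factors from 0.994 to 1.01. ErbB4+/+ replicate 1 stood apart. Its median correlation with the other libraries was 0.987 against 0.991 to 0.993 for the rest, and over 14392 genes its deviation from the mean of all libraries fell with transcript length (Spearman correlation −0.60, against 0.04 to 0.23 in the other 7). Xist was at 983 to 1686 CPM in ErbB4+/+ replicates 1 to 3 and at 2.70 to 3.82 CPM in the other 5 libraries, and the Y-linked gene Ddx3y was at 0.257 to 0.495 CPM in the former and at 76.4 to 80.9 CPM in the latter. By these genes 3 ErbB4+/+ libraries were female and 1 was male, while all 4 ErbB4-/- libraries were male. In every comparison below, genotype and sex can be told apart only through ErbB4+/+ replicate 4. Pallial markers were high in both genotypes, for example Neurod6 at 977 ± 98.2 and 957 ± 91.1 CPM (SD, n = 4 each). The summed CPM of 11 ganglionic eminence and interneuron markers was 603 to 787 in ErbB4+/+ and 575 to 785 in ErbB4-/- libraries. The 12 markers of radial glia and intermediate progenitors all had log2 fold changes below 0 (median −0.19), 5 of them with an unadjusted p under 0.05 and none past the adjusted threshold in edgeR's test. Without ErbB4+/+ replicate 1, 11 of the 12 were below 0 (median −0.15). Of 5 red blood cell genes tested, 2 had log2 fold changes above 0 and 3 below 0 (median −0.14). Without ErbB4+/+ replicate 1, 3 were above 0 and 2 below (median 0.015). The lowest were the embryonic globin genes Hba-x and Hbb-y, at −1.21 and −1.71 with all libraries (unadjusted p of 0.00221 and 0.00271, adjusted p of 0.74 and 0.81 in the same test). The list's summed CPM was 33.2 to 58.1 in ErbB4+/+ and 23.2 to 36.6 in ErbB4-/- libraries. The summed CPM of the meningeal and vessel markers was 149 to 157 and 143 to 156, and that of the 6 microglia markers 43.8 to 51.3 and 45.3 to 53.5. The part of these lists in the values of the migration genes was not tested. In bulk tissue, fewer cells of a type and less RNA per cell cannot be told apart.

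The comparison of the genotypes asks whether loss of ErbB4 goes with a different RNA level of these genes in the cortex. None of the 10 genes passed edgeR's quasi-likelihood test at an adjusted p of 0.05, where 0.0272% of the 14696 genes tested did. None had an unadjusted p under 0.05 (5.53% of all genes), and in none were the libraries of the 2 labels on separate sides (3.34% of all genes). DESeq2 and limma-voom called 0 of the 10 as well, and gave 0 with an unadjusted p under 0.05. The log2 fold change of the libraries labelled ErbB4-/- over those labelled ErbB4+/+ was above 0 in 7 genes and below 0 in 3, where 49.2% of all genes tested were above 0. This split depended on single libraries, with 9 of the 10 above 0 without ErbB4+/+ replicate 1 and 5 without ErbB4+/+ replicate 2 or 3. The median log2 fold change over the 10 was 0.04, against −0.00 over all genes. The values ran from −0.15 for Nde1 to 0.14 for Dcx, and the smallest adjusted p was 0.81. The 95% intervals of the fold changes are for each gene by itself, in the fit of all libraries. They take no account of sex or colony. The lowest bound was a fold of 0.779 (Nde1) and the highest 1.28 (Dcx).

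**Figure D2:**
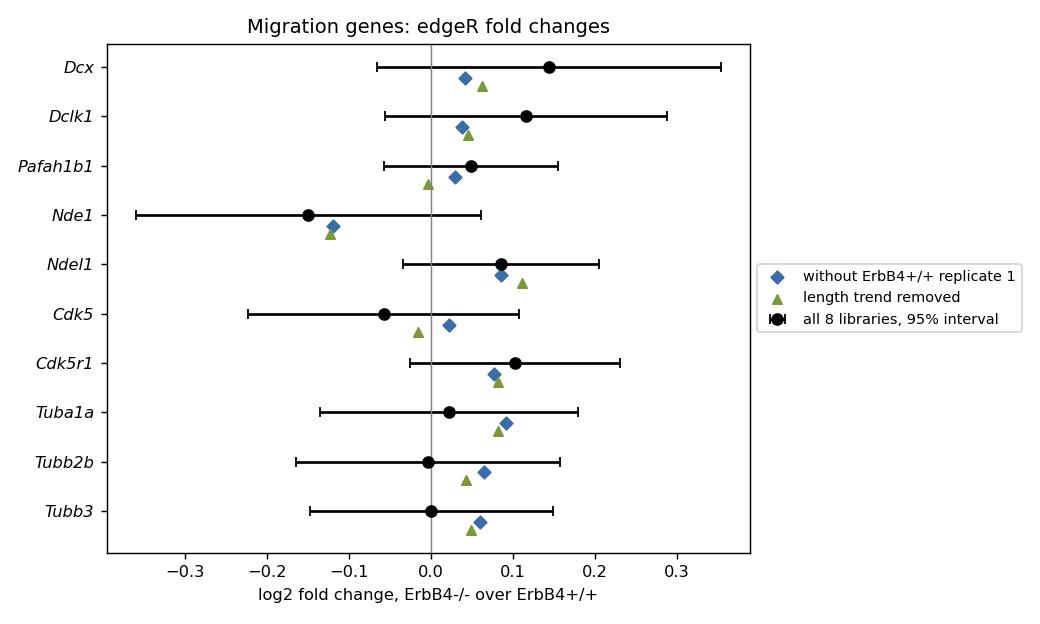
Log2 fold change of the libraries labelled ErbB4-/- over those labelled ErbB4+/+ for each migration gene, with its 95% interval from edgeR (black, 4 libraries each). Blue diamonds leave out ErbB4+/+ replicate 1 and green triangles are from the fit with the length trend removed. All 10 black intervals cross 0, and Dcx moves from 0.14 to 0.04 without that library.

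Within the set, levels spanned a wide range. Per kilobase of the longest transcript, Tuba1a was at 1797 ± 177 CPM, Tubb2b at 1240 ± 118 and Tubb3 at 1190 ± 99.9 in the ErbB4+/+ libraries (SD, n = 4). Dcx followed at 256 ± 38.5, Cdk5r1 at 154 ± 7.82, Pafah1b1 at 91.3 ± 3.49 and Dclk1 at 81.4 ± 9.70 CPM per kilobase. Cdk5 was at 41.2 ± 4.47, Nde1 at 34.5 ± 3.74 and Ndel1 at 29.8 ± 0.94 CPM per kilobase. The neighbours in this order whose ErbB4+/+ libraries overlapped were Tubb2b and Tubb3, Pafah1b1 and Dclk1, and Nde1 and Ndel1. Divided only by the windows found nowhere else in the genome, the same counts came to 6090 CPM per kilobase for Tuba1a, 2983 for Tubb2b and 1380 for Tubb3. The order of the tubulins was the same on that scale, but how far Tuba1a and Tubb2b lay above Tubb3 depends on whether reads with several places were counted. By mean CPM, without regard to length, Tuba1a was rank 5 of all genes tested, Dcx 9, Tubb2b 10 and Tubb3 11, and together the 10 genes held 1.17% to 1.26% of the raw counts of each library.

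Dcx (chrX:140290385-140367854, minus strand, NCBIM37) was at 1810, 2439, 2603 and 2427 CPM in ErbB4+/+ replicates 1 to 4 and at 2445, 2592, 2612 and 2601 CPM in ErbB4-/- replicates 1 to 4. ErbB4+/+ replicate 1 lay far below the rest, and the other 7 libraries lay close together with the genotypes mixed. The means were 2320 ± 349 and 2563 ± 78.9 CPM (SD, n = 4), a fold of 1.10 (95% interval 0.955 to 1.28, adjusted p = 0.81 in edgeR's test). Leaving out ErbB4+/+ replicate 1 took this log2 difference from 0.14 to 0.04. Dcx is X-linked. With a covariate for Xist above or below 100 CPM its log2 fold change was 0.08, and the Xist-low library ErbB4+/+ replicate 4, at 2427 CPM, lay just under the lowest ErbB4-/- library.

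Dclk1 (chr3:55046448-55342986, plus strand) encodes a kinase with doublecortin domains. It was at 532, 710, 666 and 647 CPM in the ErbB4+/+ replicates 1 to 4, and at 701, 703, 699 and 666 CPM in the ErbB4-/- replicates 1 to 4. Again ErbB4+/+ replicate 1 was the lowest, and the highest value belonged to ErbB4+/+ replicate 2. The means were 639 ± 76.1 and 692 ± 17.6 CPM (SD, n = 4), a fold of 1.08 (95% interval 0.962 to 1.22, adjusted p = 0.81 in edgeR's test). Leaving out ErbB4+/+ replicate 1 took it on the log2 scale from 0.12 to 0.04. On the log2 scale Dclk1 was below Dcx by a like amount in every library, with a log2 ratio of CPM of −1.86 ± 0.10 in ErbB4+/+ and −1.89 ± 0.07 in ErbB4-/- libraries (SD, n = 4).

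The LIS1 gene Pafah1b1 (chr11:74487451-74538172, minus strand) was at 508, 542, 552 and 518 CPM in ErbB4+/+ and at 544, 544, 559 and 546 CPM in ErbB4-/- replicates 1 to 4. The ErbB4-/- values fell inside or just above the upper part of the ErbB4+/+ range. The means were 530 ± 20.3 and 548 ± 7.34 CPM (SD, n = 4), a fold of 1.03 (95% interval 0.961 to 1.11, adjusted p = 0.83 in edgeR's test). Its interval was the narrowest of the set. The log2 difference of Pafah1b1 was 0.05, and it was 0.03 without ErbB4+/+ replicate 1 and 0.08 with the covariate for Xist.

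Nde1 and Ndel1 encode related LIS1 partners, NDE1 being best known from dividing progenitors and NDEL1 from neurons. Nde1 (chr16:14163368-14193021, plus strand) was at 85.8, 68.6, 88.1 and 79.5 CPM in ErbB4+/+ and at 66.7, 67.6, 70.9 and 85.3 CPM in ErbB4-/- replicates 1 to 4. Of the 4 ErbB4-/- libraries, 3 were near the lowest ErbB4+/+ library, and ErbB4-/- replicate 4 was among the high ones. The means were 80.5 ± 8.72 and 72.6 ± 8.64 CPM (SD, n = 4), and the log2 difference was −0.15 (SE 0.10), with an adjusted p of 0.81 by edgeR. With each library left out in turn it ran from −0.24 (without ErbB4-/- replicate 4, unadjusted p of 0.0209 and adjusted p of 0.55 by edgeR) to −0.10 (without ErbB4+/+ replicate 3). Without ErbB4-/- replicate 4, 7.73% of all genes tested had an unadjusted p under 0.05.

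Ndel1 (chr11:68634936-68685360, minus strand) was at 70.9, 73.3, 68.0 and 71.9 CPM in ErbB4+/+ and at 75.7, 75.8, 78.3 and 71.7 CPM in ErbB4-/- replicates 1 to 4. Here ErbB4-/- replicate 4 was the lowest of its genotype and the other 3 lay above every ErbB4+/+ library. The means were 71.0 ± 2.25 and 75.4 ± 2.72 CPM (SD, n = 4), a fold of 1.06 (95% interval 0.977 to 1.15, adjusted p = 0.81 in edgeR's test). The log2 ratio of Ndel1 over Nde1 CPM was −0.28, 0.10, −0.37 and −0.14 in ErbB4+/+ and 0.18, 0.16, 0.14 and −0.25 in ErbB4-/- replicates 1 to 4. The genotypes overlapped in this ratio, in which ErbB4-/- replicate 4 was with the ErbB4+/+ libraries and ErbB4+/+ replicate 2 was near the other ErbB4-/- libraries.

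The kinase gene Cdk5 (chr5:23924068-23929348, minus strand) was at 98.0, 81.4, 78.9 and 79.3 CPM in ErbB4+/+ and at 83.5, 84.2, 79.3 and 77.0 CPM in ErbB4-/- replicates 1 to 4. Only ErbB4+/+ replicate 1 was out of a narrow band that held the other 7 libraries. The means were 84.4 ± 9.15 and 81.0 ± 3.42 CPM (SD, n = 4), and the log2 difference was −0.06 (SE 0.08), with an adjusted p of 0.87 by edgeR. It was 0.02 without that library. Its activator gene Cdk5r1 (chr11:80290548-80294681, plus strand) was at 604, 678, 623 and 650 CPM in ErbB4+/+ and at 706, 697, 708 and 630 CPM in ErbB4-/- replicates 1 to 4. As for Ndel1, 3 ErbB4-/- libraries lay above every ErbB4+/+ library and ErbB4-/- replicate 4 lay among the latter. The means were 639 ± 32.3 and 685 ± 37.0 CPM (SD, n = 4), a fold of 1.07 (95% interval 0.982 to 1.17, unadjusted p = 0.108 and adjusted p = 0.81 in edgeR's test). With each library left out in turn the log2 difference of Cdk5r1 was lowest at 0.08, when ErbB4+/+ replicate 1 was left out. It was highest at 0.14, when ErbB4-/- replicate 4 was left out (unadjusted p of 0.0402 and adjusted p of 0.61 by edgeR). In that fit 7.73% of all genes tested had an unadjusted p under 0.05.

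**Figure D3:**
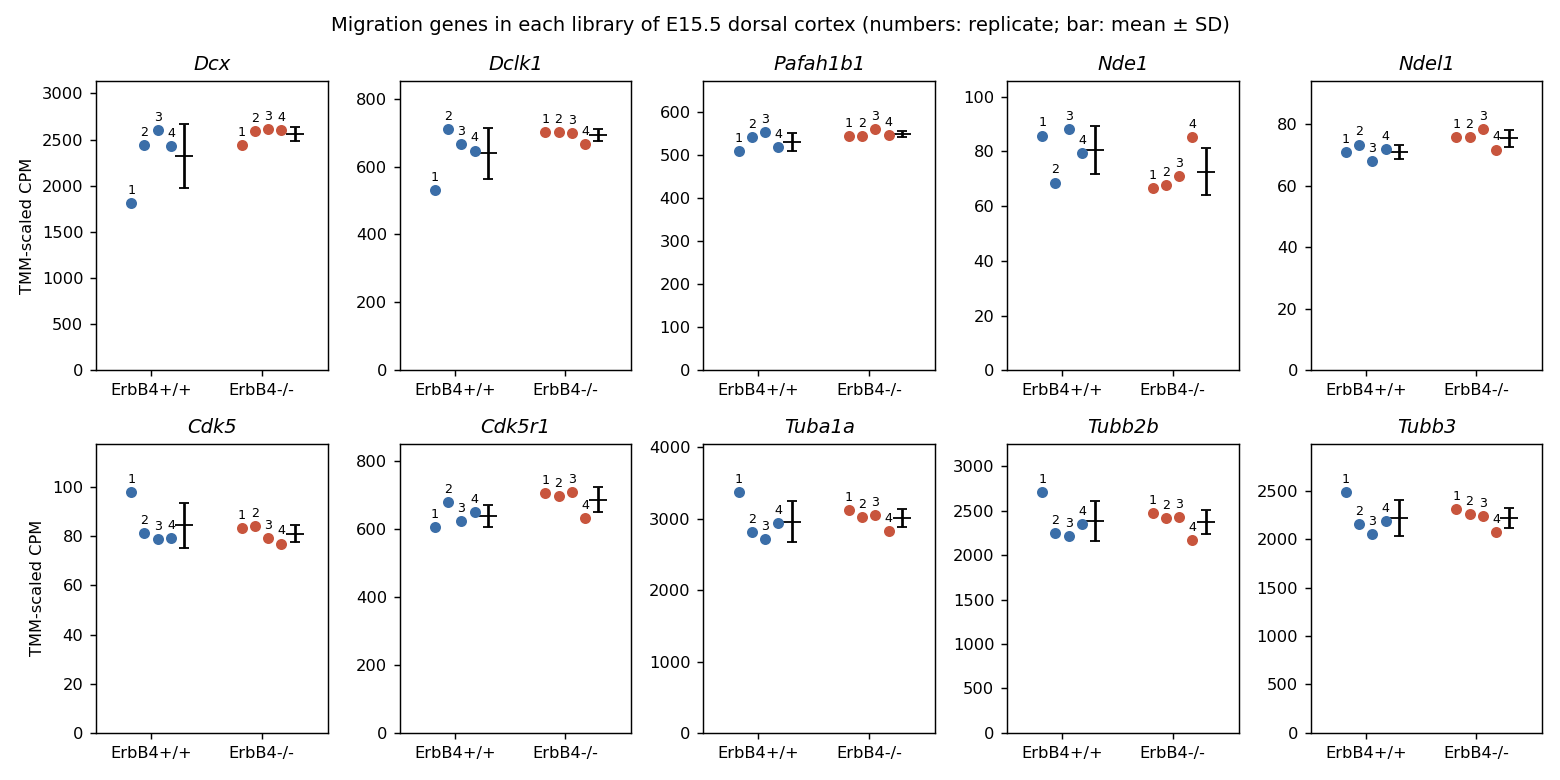
TMM-scaled CPM of each migration gene in the 4 ErbB4+/+ (blue) and 4 ErbB4-/- (red) libraries, numbered by replicate, with the mean and SD of each genotype in black. ErbB4+/+ replicate 1 is the lowest library for Dcx (1810 CPM) and the highest for the tubulins (3375 CPM for Tuba1a).

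Tuba1a (chr15:98780272-98783982, minus strand), the main alpha-tubulin gene of migrating neurons, was at 3375, 2808, 2718 and 2938 CPM in ErbB4+/+ and at 3119, 3022, 3055 and 2825 CPM in ErbB4-/- replicates 1 to 4. The highest library was ErbB4+/+ replicate 1, and the ErbB4-/- values lay inside the ErbB4+/+ range. The means were 2960 ± 291 and 3005 ± 127 CPM (SD, n = 4), a fold of 1.02 (95% interval 0.910 to 1.13, adjusted p = 0.95 in edgeR's test).

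The beta-tubulin gene Tubb2b (chr13:34218877-34222223, minus strand) was at 2712, 2252, 2213 and 2356 CPM in ErbB4+/+ and at 2480, 2418, 2433 and 2174 CPM in ErbB4-/- replicates 1 to 4. Tubb3 (chr8:125935324-125945915, plus strand), the beta-tubulin gene used as a marker of neurons, was at 2489, 2160, 2054 and 2187 CPM in ErbB4+/+ and at 2312, 2264, 2242 and 2074 CPM in ErbB4-/- replicates 1 to 4. ErbB4+/+ replicate 1 was again the highest for both genes, and the genotypes overlapped. The log2 fold change was −0.00 (SE 0.07) for Tubb2b and 0.00 (SE 0.07) for Tubb3, and edgeR gave adjusted p-values of 0.99 and 1.00. The 95% interval of the fold was 0.892 to 1.12 for Tubb2b and 0.903 to 1.11 for Tubb3. When ErbB4+/+ replicate 1 was left out, Tuba1a had a log2 difference of 0.09, and Tubb2b and Tubb3 had 0.06 each.

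Within the genotypes, the libraries varied in 2 patterns that ran through several members. In the first, ErbB4+/+ replicate 1 separated the genes by transcript length. Against the mean of all 8 libraries it was at −0.42 on the log2 scale for Dcx (longest transcript 9074 nucleotides), −0.32 for Dclk1 (7847) and −0.08 for Pafah1b1 (5803). It was at 0.18 for Tuba1a (1647 nucleotides), 0.17 for Tubb3 (1868), 0.19 for Tubb2b (1922) and 0.25 for Cdk5 (2050). Over the 10 members the Spearman correlation between length and the deviation of this library was −0.84, a description over genes that share a library. Since the deviations of a gene sum to 0 over the libraries, others had the opposite sign, with 0.78 and 0.71 in ErbB4+/+ replicates 2 and 3 and 0.56, 0.67 and 0.68 in ErbB4-/- replicates 2, 3 and 4. ErbB4+/+ replicate 4 (−0.21) and ErbB4-/- replicate 1 (−0.19) were nearer to 0. With the length trend removed in all libraries, the log2 fold change was 0.06 for Dcx, 0.04 for Dclk1 and −0.00 for Pafah1b1, all nearer to 0 than before. It was 0.08 for Tuba1a, 0.04 for Tubb2b and 0.05 for Tubb3, all farther from 0, and 0.11 for Ndel1 (unadjusted p = 0.0442, adjusted p = 0.69 by edgeR). The median over the 10 genes was 0.05 in that fit, and none passed the threshold. There, 1 of the 10 and 7.13% of all genes tested had an unadjusted p under 0.05.

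In the second pattern Nde1 ran against Cdk5r1 and Ndel1. On log2 CPM centred within each genotype, over 8 libraries, Nde1 had a Pearson r of −0.93 with Cdk5r1 and −0.82 with Ndel1, and Cdk5r1 and Ndel1 had an r of 0.82. Without ErbB4+/+ replicate 1 these values were −0.95, −0.85 and 0.93. In those 7 libraries the pattern took in more members, with an r of Nde1 of −0.87 with Tubb3, −0.83 with both Cdk5 and Dclk1, −0.71 with Tubb2b and −0.70 with Tuba1a. It was 0.62 with Dcx and 0.11 with Pafah1b1. The summed CPM of the 12 radial glia and progenitor markers had an r of 0.94 with Nde1, −0.94 with Cdk5r1 and −0.69 with Ndel1. It also had an r of −0.80 with Dclk1, and from −0.43 to 0.26 with the other 6 members. That sum was 3283, 2616, 3085 and 2945 CPM in ErbB4+/+ and 2575, 2545, 2645 and 2939 CPM in ErbB4-/- replicates 1 to 4. ErbB4-/- replicate 4, high for Nde1 and low for Cdk5r1, was thus the ErbB4-/- library with most progenitor RNA, and ErbB4+/+ replicate 2 was the ErbB4+/+ library with least. The part of this in the values of Nde1, Ndel1 and Cdk5r1 was not tested.

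**Figure D4:**
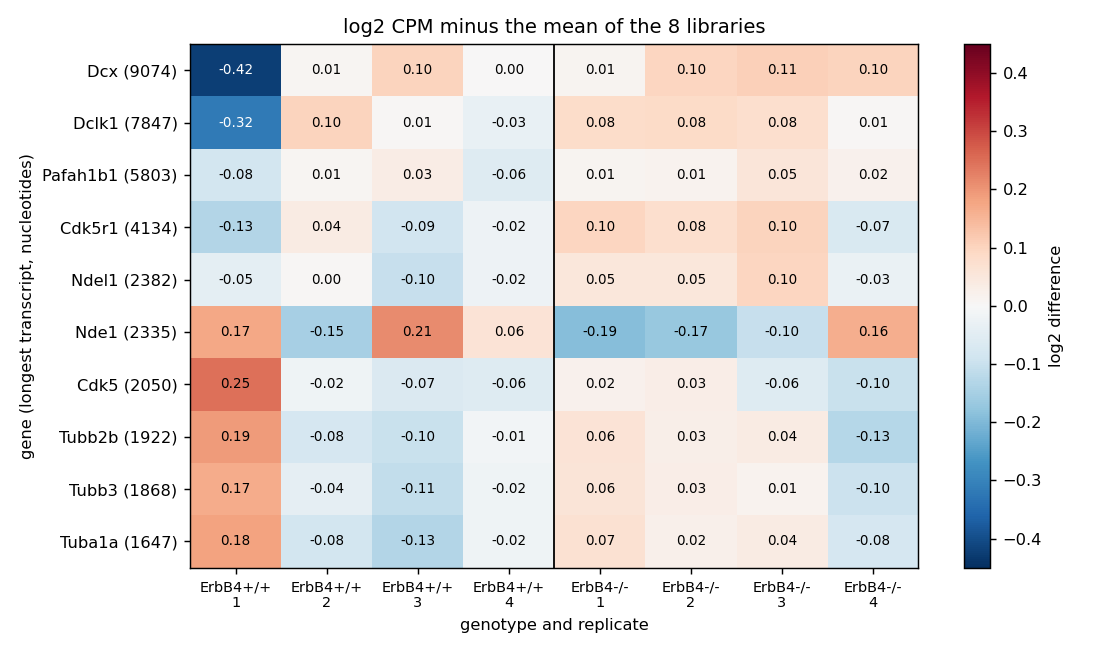
Log2 CPM of each migration gene in each library minus its mean over the 8 libraries, with genes ordered by the length of the longest transcript and the genotypes parted by a line. The ErbB4+/+ replicate 1 column runs from −0.42 for Dcx at the top to 0.18 for Tuba1a at the bottom, and the Nde1 row is high in ErbB4-/- replicate 4.

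Tuba1a, Tubb2b and Tubb3 moved together across libraries, with pairwise r from 0.983 to 0.985 over the 8 libraries and from 0.952 to 0.966 without ErbB4+/+ replicate 1. The log2 ratio of Tubb3 over Tubb2b CPM was −0.10 ± 0.03 in ErbB4+/+ and −0.10 ± 0.02 in ErbB4-/- libraries (SD, n = 4). Dcx and Dclk1 had an r of 0.87, which was −0.23 without ErbB4+/+ replicate 1. Among all genes tested, those most like Dcx over the 8 libraries, centred by genotype, were Zyg11b, Gtf3c3 and 6230409E13Rik (r of 0.999, 0.998 and 0.996). Without ErbB4+/+ replicate 1 these values were 0.990, 0.973 and 0.959. Those most like Nde1 were Pex19, Cep55 and Ctnnb1 (r of 0.988, 0.986 and 0.986, and of 0.987, 0.987 and 0.988 without that library). Picked as the highest among all genes tested, such values are high by selection.

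The 250 bases before the start sites of Tuba1a and Tubb3 are shown, from RefSeq promoters of build GRCm38.p6. That table held 7 of the 10 members, and Tubb2b, Cdk5 and Cdk5r1 were not among them. Capitals mark the letters searched on both strands, which were CANNTG (E-box), GGGCGG (GC box), CCAAT and TATAAA. Of 32536 distinct promoters of this length, 66.2% held CANNTG, 33.0% GGGCGG, 33.8% CCAAT and 12.3% TATAAA. The Tuba1a stretch (chr15:98953502-98953751, minus strand, GRCm38.p6) held 1 E-box, 1 GC box and 1 CCAAT, and the E-box overlaps the end of the GC box. The Tubb3 stretch (chr8:123411303-123411552, plus strand, GRCm38.p6) held 2 GC boxes and 1 CCAAT. These matches describe the letters, and binding was not measured. Their part in the joint movement of the tubulin genes was not tested.
Tuba1a promoter: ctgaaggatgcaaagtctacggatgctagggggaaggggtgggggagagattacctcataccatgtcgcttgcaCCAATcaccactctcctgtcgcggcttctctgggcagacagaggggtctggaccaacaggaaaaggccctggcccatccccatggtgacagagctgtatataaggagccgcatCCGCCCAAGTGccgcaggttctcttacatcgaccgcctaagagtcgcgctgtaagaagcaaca
Tubb3 promoter: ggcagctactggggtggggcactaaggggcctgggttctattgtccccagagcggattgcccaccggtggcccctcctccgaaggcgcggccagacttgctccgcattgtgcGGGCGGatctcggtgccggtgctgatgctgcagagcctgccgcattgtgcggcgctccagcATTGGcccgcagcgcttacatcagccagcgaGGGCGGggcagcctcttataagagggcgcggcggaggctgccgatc

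A wider list of 54 migration genes, in 7 groups by function, was read beside the 10. All 54 were tested. None passed edgeR's adjusted threshold, nor that of DESeq2 or limma-voom. The log2 fold change was above 0 in 29 and below 0 in 25, with a median of 0.00, and 6 had an unadjusted p under 0.05, 3 in each direction. The share of 6 in 54 stands beside the 5.53% of all genes given above, and the 2 genes whose genotypes did not overlap, Vldlr and Tubb6, beside the 3.34%.

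By group, the 14 dynein, dynactin and LIS1 partner genes lay around 0, at a median log2 difference of −0.02, with 7 above 0 and 7 below. Ywhae, the gene of 14-3-3 epsilon that binds phosphorylated NDEL1, was at 1437 ± 130 and 1394 ± 21.9 CPM (SD, n = 4) in ErbB4+/+ and ErbB4-/- libraries. Pafah1b2, which encodes a catalytic subunit that binds LIS1, had a log2 difference of 0.01 (adjusted p of 0.98 by edgeR). Dync1i1, a dynein intermediate chain gene, was at 109, 95.8, 76.8 and 89.1 CPM in ErbB4+/+ and at 125, 133, 131 and 86.7 CPM in ErbB4-/- replicates 1 to 4, an unadjusted p of 0.0209 in edgeR's test (adjusted p = 0.81). The genotypes overlapped through ErbB4-/- replicate 4, as they did for Cdk5r1. The log2 difference of Dync1i1 was 0.36, and 0.45 without ErbB4+/+ replicate 1 (unadjusted p of 0.00577 and adjusted p of 0.72 by edgeR). Without that library 5.93% of all genes tested had an unadjusted p under 0.05. The doublecortin relative Dclk2 was at 254 ± 20.4 and 262 ± 20.9 CPM (SD, n = 4), while Dcdc2a had a mean of only 0.766 CPM and a log2 difference of 0.60 that did not pass (adjusted p of 0.81 by edgeR). Cdk5r2, the gene of the second CDK5 activator p39, was at 37.6 ± 6.62 and 38.7 ± 4.88 CPM (SD, n = 4), and the 5 genes of the CDK5 group had a median difference of 0.02 on the log2 scale, with Rapgef1 at 0.06 and Ptk2 (focal adhesion kinase) at 0.02. Between members, the log2 ratio of Cdk5r1 over Cdk5 CPM was 2.92 ± 0.20 in ErbB4+/+ and 3.08 ± 0.06 in ErbB4-/- libraries, and that of Cdk5r2 over Cdk5r1 was −4.10 ± 0.23 and −4.15 ± 0.14 (SD, n = 4). Each of these groups overlapped.

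Of 10 other tubulin and tubulin assembly genes 8 were below 0, with a median of −0.08. The median was −0.03 without ErbB4+/+ replicate 1, which lay above the other libraries for this group. Tubb5, the gene of highest CPM in the wider list, was at 4625 ± 367 and 4528 ± 60.3 CPM, and Tubb2a at 371 ± 30.9 and 390 ± 30.7 CPM (SD, n = 4). The log2 ratio of Tuba1a over Tuba1b CPM was 5.30 ± 0.09 in ErbB4+/+ and 5.46 ± 0.09 in ErbB4-/- libraries (SD, n = 4), but 82.9% of the windows of Tuba1b occur elsewhere. Tubb6 was at 9.34, 10.7, 10.1 and 9.74 CPM in ErbB4+/+ and at 7.96, 8.70, 8.24 and 9.24 CPM in ErbB4-/- replicates 1 to 4, a log2 difference of −0.23 with an unadjusted p of 0.0292 (edgeR, adjusted p = 0.81), which was −0.26 without ErbB4+/+ replicate 1. Tuba1c had a log2 difference of −0.33 (edgeR p-values of 0.0390 unadjusted and 0.81 adjusted), but 60.7% of its windows occur elsewhere and its groups overlapped. Without ErbB4+/+ replicate 1 its log2 difference was −0.20, with an unadjusted p of 0.117 by edgeR. The 9 other microtubule genes had a median of 0.04, which was 0.01 without ErbB4+/+ replicate 1, the library of lowest summed CPM for this group. Among them Mapt, the gene of tau, was at 1289 ± 73.5 and 1432 ± 146 CPM, and the gene of MAP1B (Mtap1b in the files) at 1486 ± 225 and 1605 ± 91.0 CPM (SD, n = 4).

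Among genes of the actin side, the X-linked filamin A gene Flna was at 388 ± 59.2 and 388 ± 22.2 CPM (SD, n = 4). The beta-actin gene Actb had a log2 difference of 0.11 (adjusted p of 0.82 by edgeR). Rnd2, a small GTPase gene of migrating neurons, was at 168, 116, 128 and 137 CPM in ErbB4+/+ and at 99.7, 90.5, 114 and 131 CPM in ErbB4-/- replicates 1 to 4 (log2 difference −0.34, with edgeR p-values of 0.0205 unadjusted and 0.81 adjusted). Its high ErbB4-/- library was again replicate 4. Without ErbB4+/+ replicate 1 the log2 difference of Rnd2 was −0.23, with an unadjusted p of 0.0561 by edgeR. The 7 genes of reelin and its receptors and adaptors had the highest median apart from the 2 doublecortin relatives, at 0.11. ErbB4+/+ replicate 1 lay below the other libraries for this group, and without it the median was 0.02. The reelin receptor gene Vldlr was at 81.0, 94.2, 92.2 and 87.5 CPM in ErbB4+/+ and at 101, 109, 103 and 99.8 CPM in ErbB4-/- replicates 1 to 4. Every ErbB4-/- library lay above every ErbB4+/+ library, with a log2 difference of 0.22 (SE 0.06) and an unadjusted p of 0.00398 that did not pass the adjustment (edgeR, adjusted p = 0.81). Without ErbB4+/+ replicate 1 the log2 difference of Vldlr was 0.18. The adaptor gene Dab1 had a log2 difference of 0.19 (SE 0.07, with edgeR p-values of 0.0128 unadjusted and 0.81 adjusted), and the other receptor gene Lrp8 a log2 difference of 0.11 (SE 0.08). The kinase gene Fyn was at −0.02 on that scale.

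**Figure D5:**
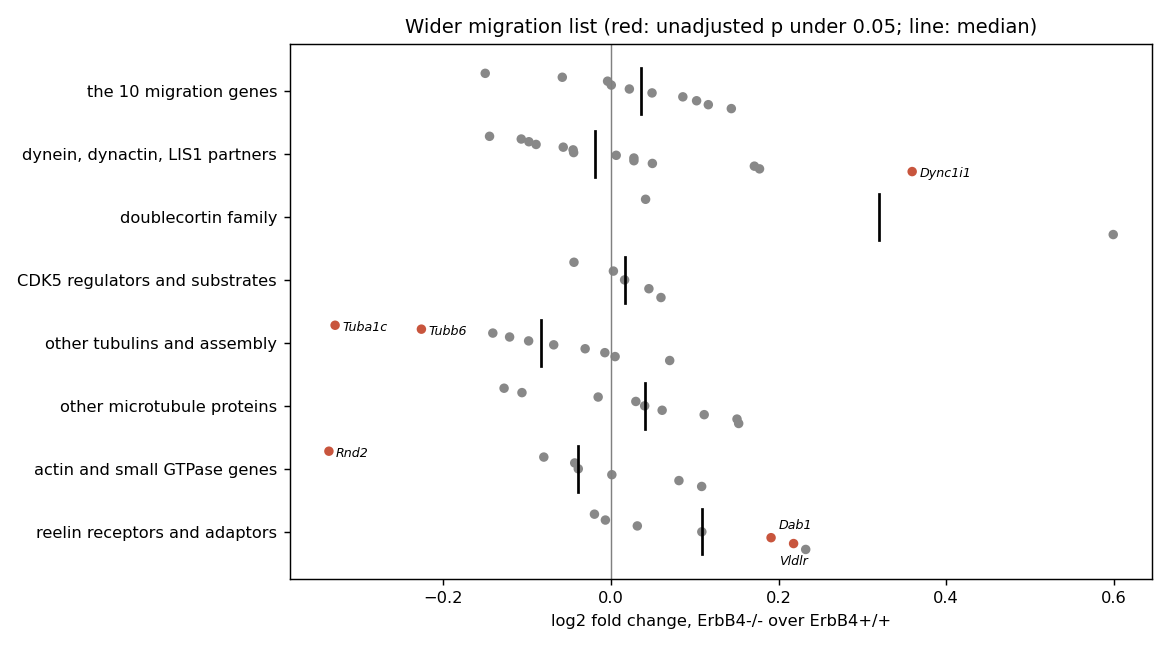
Log2 fold change of the libraries labelled ErbB4-/- over those labelled ErbB4+/+ for the 10 migration genes and for the 54 genes of the wider list by group, with a black line at each median. Red points are the 6 genes with an unadjusted p under 0.05, from Rnd2 at −0.34 to Dync1i1 at 0.36, and none of the points passed the adjusted threshold.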

How the data were processed

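RNA from E15.5 dorsal cortex was sequenced as single-end reads of 50 nucleotides from polyA-selected, unstranded libraries. The authors aligned with HISAT (genome mm9) and made gene counts with HTSeq-count. The deposited files hold raw counts per gene symbol, not normalized. Tool versions, the annotation and the counting mode are not given in the sources used here. The authors' table of their own DESeq2 comparison (fold changes and p-values) was not used.

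The test was the quasi-likelihood F test of edgeR 4.0.16, run in R 4.3.3 (TMM, filterByExpr with a minimum count of 10 and total of 15, glmQLFit and glmQLFTest, Benjamini-Hochberg adjustment over all genes tested, threshold 0.05). The common biological coefficient of variation was 10.7%. CPM are TMM-scaled, with a prior count of 2 on the log2 scale. Alternatives were DESeq2 1.42.0, limma-voom 3.58.1, other scalings and filters, a replicate block, an Xist indicator as a covariate, a length correction, other thresholds and prior counts, and each library left out. The fits were tested on simulated data. Counting error is part of the fitted model.

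The members and gene lists were chosen with earlier results of these data known. From the wider list, the text names the 2 genes of highest mean CPM in a group, those used in ratios, and genes with an unadjusted p under 0.05, the latter chosen after their values were seen. Gene positions came from GENCODE vM1 on NCBIM37, matched by symbol. Some items of the lists are not reported here.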

Additional observations from a re-analysis of the deposited data

Results flagged for a closer look

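In 5 of 20 groups of 4 libraries, 1 library's gap to the nearest other, as a share of the group's whole range, was above Dixon's critical value, which chance passes in about 5% of groups. These were Dcx in ErbB4-/- (0.880, replicate 1 low), Dclk1 in ErbB4-/- (0.886, replicate 4 low), Pafah1b1 in ErbB4-/- (0.887, replicate 3 high), Cdk5 in ErbB4+/+ (0.867, replicate 1 high) and Cdk5r1 in ErbB4-/- (0.852, replicate 4 low). Of 12 groups of CPM ratios, that of Ndel1 over Nde1 in ErbB4-/- libraries was also above it (0.908, replicate 4 low). For Dcx and Dclk1 the distant ErbB4-/- library lay nearer to its group than ErbB4+/+ replicate 1 did to the other ErbB4+/+ libraries.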

How the results depend on the processing

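None of the 10 genes and none of the wider list passed an adjusted p of 0.05 under any alternative run, nor a threshold of 0.1 in the edgeR fit of all libraries. The smallest adjusted p of a member was 0.52, for Nde1 without ErbB4+/+ replicate 2. With each library left out, the count of members past the threshold was 0 to 0 and their median log2 fold change 0.02 to 0.05. With a replicate block the count was 0 and the median 0.04, and the calls among all genes went from 4 to 1. Same-numbered libraries correlated at 0.02 to 0.13, inside the range of the other pairs (−0.19 to 0.15). These values cannot tell whether the numbers mark pairs, and the main fit did not read them as pairs. DESeq2 called 23 of all genes, and leaving out 1 library gave 1 to 13 (13 without ErbB4+/+ replicate 4).

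Dcx, Dclk1, Nde1, Ndel1 and Cdk5r1 kept their direction in all 18 alternatives. The other 5 changed sign in 1 to 7 alternatives, and the cause was not tested. Cdk5 was 0.0313 with the Xist covariate and 0.0215 without ErbB4+/+ replicate 1, and Pafah1b1 −0.00407 with the length trend removed. Tubb2b was 0.000378 with limma-voom, 0.00407 with upper-quartile scaling, 0.0128 with the Xist covariate and 0.0430 with the length trend removed. Tubb3 was −0.000808 with no filter. With each library left out, Cdk5 ran from −0.0894 to 0.0215, Tuba1a from −0.0167 to 0.0911, Tubb2b from −0.0380 to 0.0641 and Tubb3 from −0.0356 to 0.0594. The effect of depth or of the number of libraries on these values was not tested.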
